A study of Mus musculus with 9 samples.

Results

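The genes described here are p53 targets and inhibitors of cyclin-dependent kinases (CDKs), measured in cultured mouse lung cells with and without the transcription factor Nrf2. The members were a list of 10 genes, Pmaip1, Bbc3, Bax, Mdm2, Ccng1, Trp53inp1, Cdkn1a, Cdkn2a, Cdkn2b and Gadd45a. Every probe set whose single gene symbol in the platform annotation was one of them was taken. The annotation used named 15 probe sets for 9 of the genes, of 45037 probe sets and 18193 genes in all, and Bax was not analysed here. The filter on low signals kept 13 probe sets of 8 genes. The annotation gave Cdkn2a a single probe set, which did not pass.

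The labels describe type II cells, the surfactant-making cells of the alveolus, from female ICR10 mice aged 2 months, grown for 5 days on a fibronectin and collagen coat with keratinocyte growth factor. The 9 arrays (Affymetrix mouse expression arrays) form 3 groups of 3: wild type (Nrf2+/+), knockout (Nrf2-/-) and knockout supplemented with GSH, the usual abbreviation of glutathione. No source used here gives the dose or time of GSH, and the treatment field of every array says that there was none. The second number in the sample titles puts 2 arrays of each group in a set called set 2 here and 1 array in set 3, and its meaning is not stated. Whether the 3 arrays of a group stand for separate animals is not stated, so p-values cover no more than the array-to-array spread, which can be purely technical.

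The protein p53 is a transcription factor that is stabilised by DNA damage and other stress. Its targets stop the cell cycle, start cell death or feed back on p53 itself. Pmaip1 (Noxa) and Bbc3 (Puma) encode BH3-only proteins, which disable the survival members of the BCL2 family. Mdm2 encodes the ubiquitin ligase that removes p53, Ccng1 encodes cyclin G1, which acts on Mdm2, and Trp53inp1 encodes a nuclear protein that assists p53. Cdkn1a encodes p21, the main p53-driven CDK inhibitor, and Gadd45a a protein of growth arrest and DNA repair. Cdkn2a and Cdkn2b are neighbours on the chromosome. Cdkn2b encodes p15, an inhibitor of CDK4 and CDK6, while Cdkn2a yields both p16, which does the same, and Arf, which holds Mdm2 away from p53.

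RefSeq promoter windows (build GRCm38.p6) were at hand for 7 of the 9 measured genes, in 11 windows. The 250 bases before the start are shown for the 3 of them whose brightest probe set was called between knockout and wild type. They are read 5′ to 3′ on the gene's strand, which is the minus strand for each. Capitals mark the p53 half-site in Mdm2 and Ccng1 and the cyclic AMP response element (TGACGTCA) in Cdkn2b. The windows lie at chr4:89311033-89311282 for Cdkn2b, chr10:117710759-117711008 for Mdm2 and chr11:40755287-40755536 for Ccng1.
Cdkn2b: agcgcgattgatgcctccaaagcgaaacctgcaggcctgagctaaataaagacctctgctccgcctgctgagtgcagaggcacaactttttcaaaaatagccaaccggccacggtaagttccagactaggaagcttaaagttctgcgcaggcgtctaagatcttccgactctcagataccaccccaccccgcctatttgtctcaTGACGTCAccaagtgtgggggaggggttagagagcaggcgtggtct
Mdm2: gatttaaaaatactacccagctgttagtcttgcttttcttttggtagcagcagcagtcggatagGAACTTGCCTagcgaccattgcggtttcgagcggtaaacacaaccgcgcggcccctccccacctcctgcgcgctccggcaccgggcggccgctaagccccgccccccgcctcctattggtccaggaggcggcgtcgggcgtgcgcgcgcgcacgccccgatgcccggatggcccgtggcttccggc
Ccng1: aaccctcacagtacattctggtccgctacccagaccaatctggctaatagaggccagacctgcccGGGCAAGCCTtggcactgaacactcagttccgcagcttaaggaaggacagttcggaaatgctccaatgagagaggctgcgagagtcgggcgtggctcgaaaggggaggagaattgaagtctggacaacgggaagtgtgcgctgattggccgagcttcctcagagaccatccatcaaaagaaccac

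Both strands of each window were searched for the p53 half-site consensus, the antioxidant response element bound by Nrf2 (TGACNNNGC), the cyclic AMP response element (TGACGTCA), the CCAAT box (CCAAT) and the GC box (GGGCGG), of which TGACNNNGC and TGACGTCA share their first 4 letters. A p53 half-site was found in 4 of the 11 windows, 1 each of Ccng1, Cdkn1a, Gadd45a and Mdm2, and in 7.13% of all 32851 windows of that length. The antioxidant response element letters were found for 1 gene, Cdkn2a, in 1 of the 11 windows, and in 10.2% of all windows. The cyclic AMP response element was found in 1 of the 11 windows, that of Cdkn2b, where it starts 46 bases before the gene's start, and in 1.55% of all windows. The GC box was found in 7 of the 11 windows (5 genes) and the CCAAT box in 4 of 11 (4 genes), and in 32.7% and 33.8% of all windows. These matches describe the letters only.

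Signals are in the arbitrary units of the deposited table, and group values are means ± SD (n = 3 arrays). Changes are log2 differences from a limma fit to all 9 arrays with a term for the set, and a probe set was called where its Benjamini-Hochberg adjusted p over all 22519 tested probe sets was under 0.05. The brighter probe set of Nfe2l2, which encodes Nrf2, read 3980.4 ± 167 in wild type, 59.9 ± 27.1 in knockout and 41.6 ± 7.20 under GSH, as the genotype labels have it. Xist (brightest probe set), the RNA of the inactive X chromosome, read 157 ± 28.2, 3203 ± 1248 and 3510.0 ± 1112, and the Y-linked Eif2s3y read 801 ± 121, 9.27 ± 13.1 and 7.43 ± 7.68, although the labels call all mice female. In both comparisons with wild type, genotype and this difference cannot be told apart. The type II marker Sftpc lay at or below the control level (the 95th percentile of 27 bacterial control probe sets on the same array) on all wild-type arrays, at 37.3 ± 10.3. It read 89.1 ± 48.7 in knockout and 108 ± 30.3 with GSH. No 2 arrays held identical values.

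Without Nrf2, 2 members stood well below their wild-type signals: Pmaip1 at 23.1% and Cdkn2b at 37.4% of the wild-type mean. Smaller falls were called for Ccng1 and Trp53inp1 and a small rise for Mdm2, while Bbc3, Cdkn1a and Gadd45a were not called. By the brightest probe set of each gene, 1 of 8 genes was called higher and 4 lower, where 14.6% of all tested probe sets were called higher and 14.6% lower. The groups did not overlap for 3 genes (Pmaip1, Cdkn2b and Ccng1), against 30.2% of all tested probe sets. The median log2 change of the 8 genes was -0.36, beside 0.0026 over all tested probe sets.

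With GSH, knockout cells had Pmaip1 back near its wild-type signal, and Cdkn2b and Trp53inp1 higher than without GSH. In this comparison 3 of 8 genes were called higher and 1, Cdkn1a, lower, where 18.4% of all tested probe sets were called higher and 17.0% lower. The groups did not overlap for 4 genes (Pmaip1, Bbc3, Cdkn1a and Cdkn2b), against 33.6% of all. The median change was 0.05, beside 0.04 over all tested probe sets. This comparison shares the knockout arrays with the previous one.

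Knockout cells with GSH differed from wild type in Cdkn2b, Ccng1, Gadd45a and Cdkn1a, which were lower, and in Mdm2, which was higher. That made 1 gene higher and 4 lower of 8, where 22.5% of all tested probe sets were called higher and 22.3% lower. The groups did not overlap for 5 genes (Mdm2, Ccng1, Cdkn1a, Cdkn2b and Gadd45a), against 43.4% of all. The median change was -0.17, beside 0.02 over all tested probe sets. Pmaip1, Bbc3 and Trp53inp1 were not called.

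**Figure D1:**
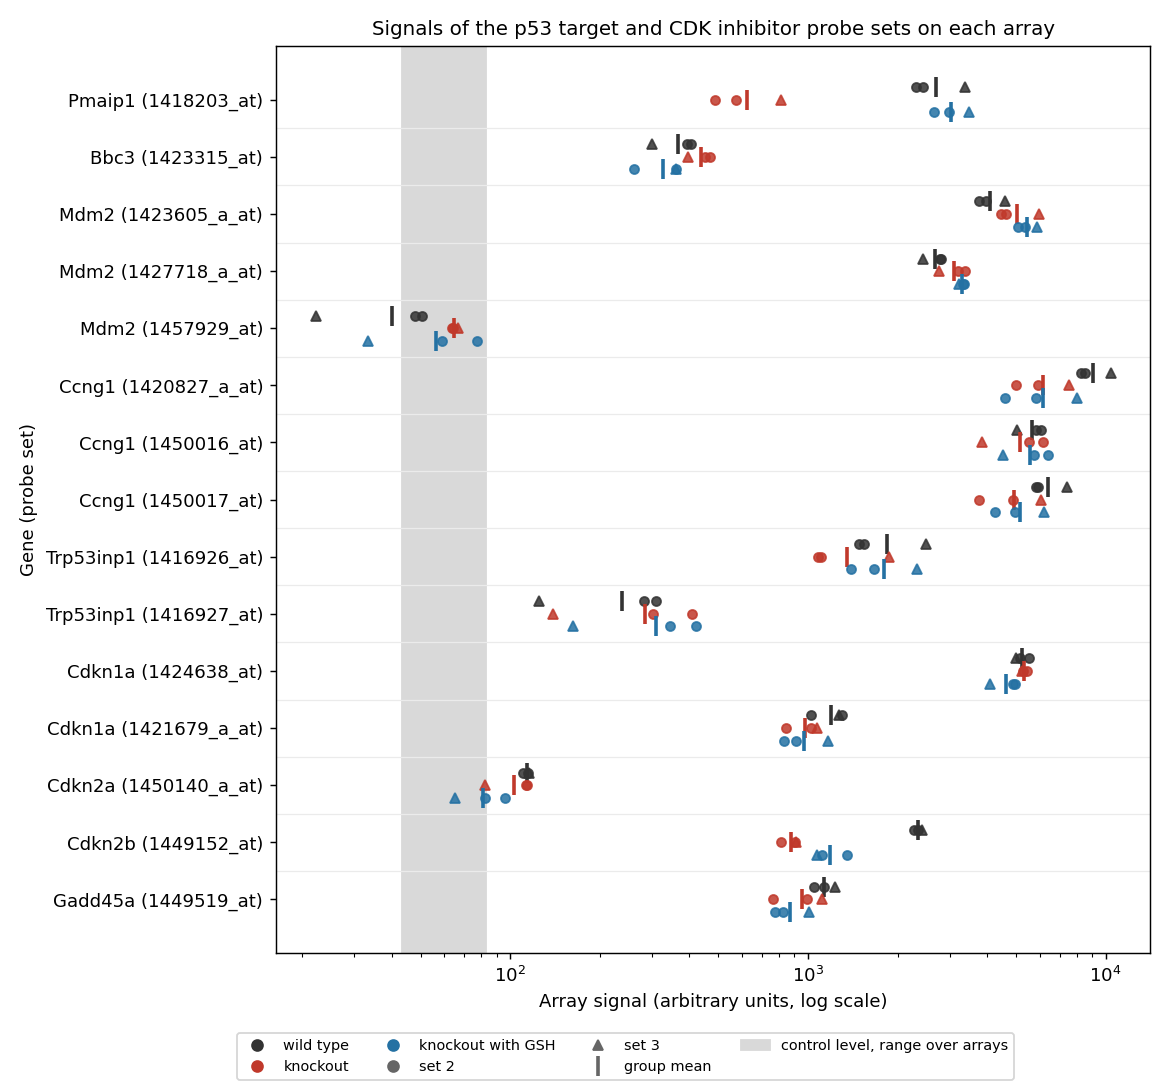
Signal of each of the 15 probe sets on each of the 9 arrays (horizontal log axis, arbitrary units), with circles for set 2, triangles for set 3, vertical ticks for group means and a grey band for the range of the control level. Pmaip1 on the knockout arrays lies between 485.8 and 810.1, below every array of both other groups, and Cdkn2b on the wild-type arrays lies above all others.

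Pmaip1 (probe set 1418203_at) read 2311.5, 2429.7 and 3359.6 in wild type. It read 485.8, 574 and 810.1 in knockout and 2646.4, 2973.7 and 3469.9 under GSH. The set 3 array was the highest of each group, and the knockout arrays did not overlap with either other group. Between wild type (2700.3 ± 574) and knockout (623 ± 168) it fell by 2.13 ± 0.09 (SE) on the log2 scale, a 4.37-fold difference (limma adjusted p = 3.1e-08). The difference was -2.17 within set 2 and -2.05 within set 3. Only 0.560% of the tested probe sets had a larger change in this comparison.

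With GSH, Pmaip1 rose 4.94-fold in knockout cells, to 3030 ± 415 (log2 change 2.31 ± 0.09 SE, limma adjusted p = 5.9e-09). The change was 2.41 within set 2 and 2.10 within set 3. Against wild type the signal with GSH differed by 0.18, with a 95% interval of -0.02 to 0.38 (limma adjusted p = 0.14), and the groups overlapped. Of the 13 tested probe sets, that of Pmaip1 had the largest change in both comparisons that use the knockout arrays without GSH.

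Bbc3 (1423315_at), the other BH3-only gene of the list, was dimmer and had its highest mean in knockout. It read 299.9, 392.8 and 404.1 in wild type, 395.1, 449.9 and 468.4 in knockout and 260.4, 359.5 and 360.5 under GSH. Knockout and wild type overlapped, with a log2 difference of 0.27 and an interval of -0.09 to 0.63 (limma adjusted p = 0.25). All 3 arrays with GSH lay below all 3 knockout arrays, at a difference of -0.43 (interval -0.79 to -0.08), which missed the threshold (limma adjusted p = 0.059). The difference was -0.59 within set 2 and -0.13 within set 3. Without knockout with GSH replicate 2 it shrank to -0.24 (adjusted p = 0.20), and without knockout with GSH replicate 4 it was -0.62 (0.017). It passed under 3 of 15 alternatives, the others being set 2 alone (0.038) and quantile normalisation (0.049).

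Mdm2, the p53 feedback ligase, had a bright pair of probe sets, both called higher in knockout. The brightest (1423605_a_at) read 3765.3, 3959.3 and 4579.5 in wild type, 4452.8, 4643.6 and 5963.2 in knockout and 5074.5, 5361.8 and 5866 under GSH. Knockout overlapped with wild type, since the wild-type array of set 3 lay above 1 knockout array of set 2, and the arrays with GSH lay above all wild-type arrays. The rise in knockout was 0.28 ± 0.06 SE (limma adjusted p = 0.0069), and it was not called without the set term (adjusted p = 0.20) or in set 2 alone (0.057).

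With GSH, Mdm2 stood 0.41 ± 0.06 SE above wild type (limma adjusted p = 3.4e-04). GSH made no called difference within the knockout, at 0.12 and an interval of -0.02 to 0.27 (limma adjusted p = 0.16). The second bright probe set (1427718_a_at) rose by 0.21 in knockout and by 0.30 with GSH against wild type (limma adjusted p = 0.026 and 0.0022). The first of these calls was lost under 9 of 16 alternatives: without the set term (adjusted p = 0.22), with the replicate block, where the change was 0.11 (0.51), in set 2 alone (0.055), with no intensity trend (0.079), by a rule that asks for a mean change of 1.5-fold, and without any of wild type replicates 3, 4 and 5 or knockout replicate 2 (0.074 to 0.094). The replicate block puts the replicate number in place of the set, and number 4 joins a wild-type array of set 2 with a knockout array of set 3. Against wild type, that fit therefore mixes group and set. The other Mdm2 probe set (1457929_at) read 22.2 to 77.5 over all arrays, above the control level on 1 wild-type, 2 knockout and 1 GSH array, and was not tested.

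Ccng1, which encodes cyclin G1, was among the brightest members, and 2 of its 3 probe sets were called lower in knockout. The brightest (1420827_a_at) read 8247.9, 8492.5 and 10402.4 in wild type, 4983.9, 5929.2 and 7508.9 in knockout and 4604.8, 5821.5 and 7996.6 under GSH. All wild-type arrays lay above all arrays of both knockout groups. The log2 change was -0.57 ± 0.10 SE in knockout (limma adjusted p = 0.0014), and -0.59 with GSH against wild type (adjusted p = 5.6e-04). Neither was called without the set term (adjusted p = 0.11 and 0.061). With the replicate number as a block in place of the set, which mixes group and set, the knockout change was -0.30 and not called (adjusted p = 0.11).

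The probe set 1450017_at of Ccng1 fell too, by 0.40 in knockout and by 0.32 with GSH against wild type (limma adjusted p = 0.0089 and 0.017). Neither was called without the set term (adjusted p = 0.23 and 0.26). The knockout change was -0.23 with the replicate block (adjusted p = 0.38), which mixes group and set. The second of these calls was also lost without wild type replicate 3 or 4 (adjusted p = 0.056 and 0.064) and without knockout with GSH replicate 2 or 4 (0.072 and 0.051). The probe set 1450016_at read 5652 ± 546 in wild type, 5174 ± 1203 in knockout and 5561 ± 951 under GSH. Its differences from wild type were -0.15 (interval -0.33 to 0.03) and -0.03 (interval -0.22 to 0.15), neither called (limma adjusted p = 0.21 and 0.77). GSH made no called difference in any Ccng1 probe set within the knockout, the changes being -0.02, 0.12 and 0.08.

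Trp53inp1, the p53 cofactor, had its lowest mean in knockout by its brighter probe set (1416926_at). This read 1485.5, 1545.8 and 2493.8 in wild type, 1081.1, 1107.7 and 1873 in knockout and 1399, 1666.6 and 2326.3 under GSH. The set 3 array was the highest of each group by far, so the groups overlapped, while within either set the knockout arrays were the lowest. The fall in knockout was 0.45 ± 0.08 SE (limma adjusted p = 0.0014), with -0.47 within set 2 and -0.41 within set 3. The rise with GSH was 0.42 ± 0.08 SE (limma adjusted p = 0.0014), with 0.48 and 0.31 within the sets. Neither was called without the set term (adjusted p = 0.36 and 0.35). With the replicate number as a block in place of the set, the knockout change was -0.06 (adjusted p = 0.83). That block joins wild type replicate 4 of set 2 with knockout replicate 4 of set 3, so this value mixes group and set.

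The dimmer Trp53inp1 probe set (1416927_at) read 238 ± 99.3 in wild type, 283 ± 136 in knockout and 309 ± 132 under GSH. It was called in none of the 3 comparisons (limma adjusted p = 0.33, 0.50 and 0.076), and its mean did not dip in knockout. With GSH against wild type, the brighter probe set differed by -0.03 (interval -0.20 to 0.15) and the dimmer one by 0.38 (interval 0.03 to 0.72).

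Cdkn1a, which encodes p21, was nearly level between wild type and knockout. Its brightest probe set (1424638_at) read 5015.7, 5153.9 and 5547.9 in wild type, 5247.3, 5265.9 and 5425 in knockout and 4090.3, 4894.6 and 4944.9 under GSH. Knockout lay inside the wild-type range, at a log2 difference of 0.02 with an interval of -0.12 to 0.17 (limma adjusted p = 0.85). All arrays with GSH lay below all others.

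The fall of Cdkn1a with GSH was 0.20 ± 0.07 SE against knockout and 0.18 ± 0.07 SE against wild type (limma adjusted p = 0.035 and 0.046). Against knockout the call was lost under 10 of 16 alternatives: without the set term (adjusted p = 0.17), with the replicate number as a block (0.15), with no filter on low signals (0.065), with only the 6 arrays compared (0.077), with no intensity trend (0.10), by the 1.5-fold rule, in set 2 alone, where the change was -0.12 (0.28), and without knockout replicate 2 (0.062), knockout replicate 4 (0.17) or knockout with GSH replicate 4 (0.19). Against wild type it was lost under 11 of 16 alternatives, among them the fit without the set term (0.19) and those without wild type replicate 3, 4 or 5 or knockout with GSH replicate 2 or 4, at adjusted p of 0.056 to 0.24. Without knockout with GSH replicate 4 the changes were -0.13 against knockout and -0.11 against wild type. The dimmer probe set (1421679_a_at) read 1200.1 ± 156, 979 ± 118 and 971 ± 174, and was called with GSH against wild type (log2 change -0.31, limma adjusted p = 0.043) but not in knockout (-0.29, adjusted p = 0.076). The knockout difference was -0.18 without wild type replicate 3 (0.31) and -0.38 without knockout replicate 2 (0.044), the single alternative of 16 under which it passed. The call with GSH was lost under 11 of 16 alternatives, among them the fit without the set term (0.19) and those without wild type replicate 3 (0.20) or 5 (0.055) or knockout with GSH replicate 2 (0.15) or 3 (0.083).

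Cdkn2b, which encodes p15, showed the largest fall among the CDK inhibitors of the list. Its probe set (1449152_at) read 2266.3, 2347.6 and 2416.4 in wild type, 812.4, 906.3 and 912.4 in knockout and 1076.3, 1117 and 1355 under GSH. The 3 groups were fully apart, with wild type the highest and knockout the lowest. The fall in knockout was 1.42 ± 0.10 SE on the log2 scale, 2.67-fold (limma adjusted p = 8.3e-07), and only 2.10% of the tested probe sets had a larger change. It was -1.43 within set 2 and -1.41 within set 3.

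With GSH, Cdkn2b rose 1.34-fold within the knockout, from 877 ± 56.1 to 1183 ± 151 (log2 change 0.43 ± 0.10 SE, limma adjusted p = 0.0045). The signal remained 1.99-fold below wild type (-0.99 ± 0.10 SE, limma adjusted p = 6.3e-06). Pmaip1 and Cdkn2b were thus both low in knockout, and with GSH Pmaip1 overlapped with wild type while Cdkn2b did not; whether their responses differ was not tested.

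Cdkn2a, the neighbour of Cdkn2b, was dim throughout. Its probe set (1450140_a_at) read 110.3, 115.1 and 116.1 in wild type, 82.3, 113.1 and 113.9 in knockout and 65.4, 82.3 and 96.2 under GSH, each above the control level of its own array. The wild-type arrays lay above those with GSH, and the knockout arrays overlapped with both. It fell below the filter on low signals, and with no filter the differences were -0.16, -0.34 and -0.50 in the order of the comparisons above (limma adjusted p = 0.77, 0.44 and 0.19). One probe set cannot tell the p16 from the Arf transcript unless it lies in the part they do not share, and its place in the gene was not examined here.

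Gadd45a, of growth arrest and repair, had its highest mean in wild type. The probe set 1449519_at read 1048.5, 1131.7 and 1229.4 in wild type, 764.8, 989.4 and 1115.5 in knockout and 773, 825.4 and 1006.7 under GSH. Knockout overlapped with both other groups, and the arrays with GSH lay below all wild-type arrays. With GSH it was lower than in wild type, at -0.39 ± 0.10 SE (limma adjusted p = 0.0083), not called without the set term (adjusted p = 0.097). The difference of -0.26 in knockout was not called (limma adjusted p = 0.076) and was -0.15 without knockout replicate 2 (0.26) and -0.35 without knockout replicate 3 (0.030), the single alternative of 16 under which it passed. Within the knockout, GSH made a difference of -0.13 (interval -0.36 to 0.09).

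**Figure D2:**
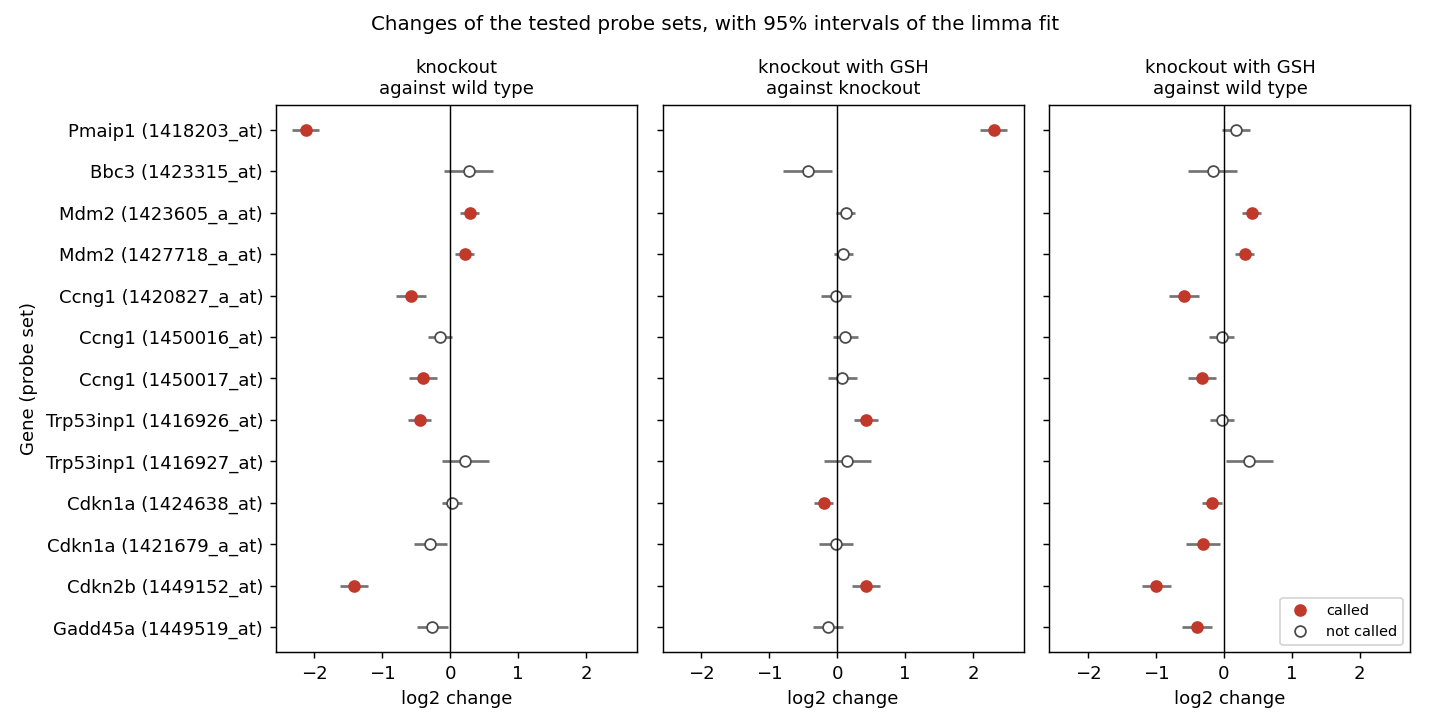
Log2 changes of the 13 tested probe sets in the 3 comparisons (horizontal axes), with 95% intervals of the limma fit as lines, filled points for called and open points for uncalled probe sets. Pmaip1 has -2.13 and 2.31 in the first and second panels and 0.18 in the third, while Cdkn2b has -1.42, 0.43 and -0.99.

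The probe sets of 1 gene often parted between the sets. In set 3, the brighter Trp53inp1 probe set was higher by 0.70 ± 0.07 SE than in set 2 and the dimmer one lower, at -1.27 ± 0.14 SE (limma adjusted p = 3.5e-05 and 7.1e-05). Ccng1 had 0.47 and 0.43 for 1420827_a_at and 1450017_at but -0.42 for 1450016_at (adjusted p = 0.0017, 0.0023 and 0.0011), and the bright Mdm2 probe sets had 0.27 and -0.17 (adjusted p = 0.0035 and 0.032). Of 4 members with 2 or more tested probe sets, 3 were thus called both ways, as were 15.2% of the 5173 genes with 2 or more. Pmaip1 (0.48) and Gadd45a (0.29) were called higher in set 3, and Cdkn2b, Bbc3 and Cdkn1a were not called. Over all tested probe sets 17.4% were called higher in set 3 and 21.5% lower. The ratio of 3' to 5' control probe sets of Gapdh ran from 0.777 to 0.801 on the set 2 arrays and from 0.847 to 0.895 on those of set 3, without overlap. The same ratio of the transferrin receptor ran from 3.19 to 4.44 in set 2 and from 3.08 to 3.51 in set 3, where the sets overlapped. Their part in these differences was not tested.

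**Figure D3:**
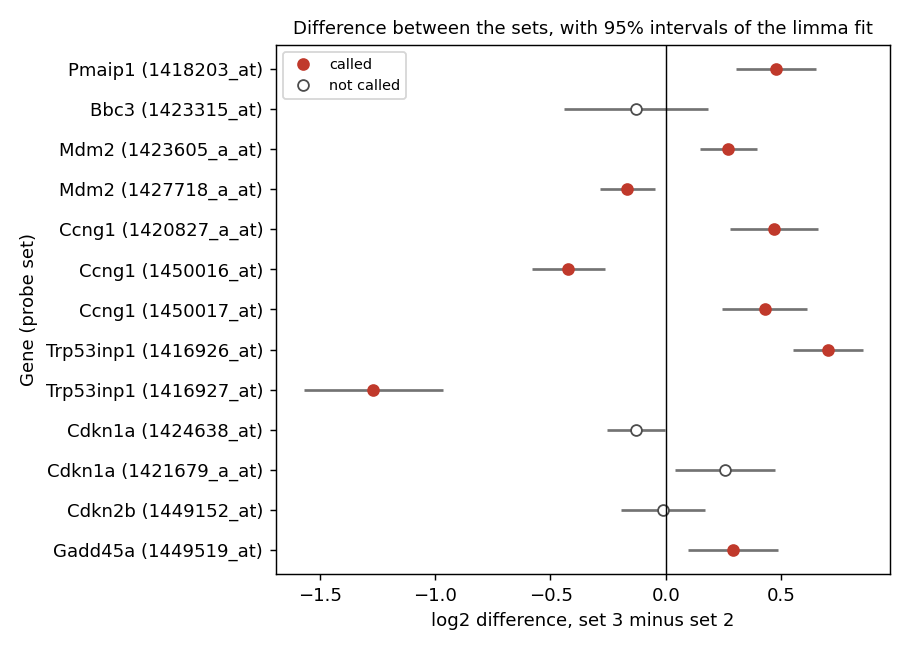
Log2 difference between set 3 and set 2 for the 13 tested probe sets (horizontal axis), with 95% intervals of the limma fit; filled points were called. The probe sets of Trp53inp1, Ccng1 and Mdm2 fall on both sides of 0, while Cdkn2b lies at -0.01.

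The genes whose signals followed Pmaip1 most closely over the 9 arrays were Mal2 (Pearson r = 0.996), Igsf11 (0.992) and Tuft1 (0.991). Mal2 read 1460.1 ± 231 in wild type, 349 ± 86.6 in knockout and 1732 ± 366 under GSH. For Cdkn1a they were Adm2 (0.975), Rtn2 (0.972) and Stau1 (0.951), where Stau1 read 1108 ± 66.8, 1091 ± 87.0 and 834 ± 178. The 9 arrays share 3 groups and 2 sets, so these correlations describe the pattern only.

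The counts of the lists below stand beside the shares over all tested probe sets. These were 14.6% higher and 14.6% lower in knockout, and 18.4% and 17.0% with GSH against knockout. With GSH against wild type they were 22.5% and 22.3%. Of 18 other p53 targets that act in death, 9 were called higher and 5 lower between knockout and wild type, with a median of 0.23. The smallest p was that of Perp, a membrane protein of desmosomes and cell death, which fell from 1058 ± 33.4 to 282 ± 23.7 and stood at 1035 ± 59.3 with GSH (log2 changes -1.91 and 1.88, limma adjusted p = 6.3e-08 and 2.9e-08). Casp1, the protease that matures interleukin-1, rose by 1.30, Pml, the nuclear body protein, rose by 0.93, and Zmat3, an RNA-binding p53 target, fell by 0.64. With GSH against knockout 5 were higher and 4 lower (median -0.08), among them Dram1, an autophagy gene, at 0.51, and Siva1 at -0.57. With GSH against wild type 3 were higher and 3 lower (median -0.01), and Casp1 stood 1.99 above wild type.

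Other p53 targets of the cell cycle and repair had 2 higher and 6 lower of 24 in knockout, with a median of -0.06. Sfn, the epithelial 14-3-3 protein that holds cells in G2, fell from 2621 ± 550 to 265 ± 140 and rose with GSH to 4139 ± 899 (log2 changes -3.45 and 4.11, limma adjusted p = 1.5e-07 and 1.6e-08). The Gadd45a relatives Gadd45g and Gadd45b fell by 1.10 and 0.58 in knockout (limma adjusted p = 2.4e-06 and 3.0e-05). Gadd45b rose with GSH (0.68), while Gadd45g stood at -1.28 with GSH against wild type. In all, 6 were higher and 7 lower with GSH against knockout (median 0.08), and 4 higher and 7 lower against wild type (median 0.09).

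Of 17 tested p53 regulators, 2 were higher and 2 lower in knockout, with a median of 0.07. Hipk2, a kinase that phosphorylates p53, read 3101 ± 478, 2498 ± 268 and 3973 ± 438 in the 3 groups (log2 changes -0.31 in knockout and 0.67 with GSH, limma adjusted p = 0.0021 and 3.4e-06). The checkpoint kinase gene Chek1 went the other way, at 400.3 ± 24.3, 572 ± 24.5 and 394 ± 29.5 (0.52 and -0.54, adjusted p = 0.0039 and 0.0020). With GSH 4 were higher and 2 lower against knockout and likewise against wild type (medians 0.04 and 0.07).

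The BCL2 family had 1 higher and 4 lower of 14 in knockout, with a median of 0.11. Bnip3, a mitochondrial death and mitophagy gene, rose by 0.67 and fell with GSH (-1.08), and Bok, a pore-forming relative of Bax, fell by 0.64. Bik, another BH3-only gene, read 166 ± 26.7, 64.0 ± 9.05 and 178 ± 43.9, a fall of 1.37 in knockout and a rise of 1.45 with GSH (limma adjusted p = 0.0012 and 5.3e-04). Mcl1, the survival protein that Noxa binds, read 6163 ± 45.7, 6348 ± 230 and 8918 ± 646 and rose with GSH by 0.49 (limma adjusted p = 4.4e-05). With GSH 4 were higher and 1 lower against knockout (median 0.16) and 4 higher and 2 lower against wild type (median 0.15).

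Other CDK inhibitors were called higher in knockout for 2 of 4 tested genes. Cdkn2c (p18) and Cdkn2d (p19), its relatives that also inhibit CDK4 and CDK6, rose in knockout by 0.72 and 0.68 (limma adjusted p = 6.4e-05 and 4.7e-05). With GSH against knockout all 4 tested genes were lower, Cdkn2c at -0.87, Cdkn2d at -0.73, Cdkn1b (p27) at -0.42 and Cdkn3, a phosphatase of CDKs, at -0.74. Against wild type 2 were lower with GSH, Cdkn1b and Cdkn3 (-0.40 and -0.60). The list's medians were 0.41, -0.74 and -0.28 in the order of the comparisons above.

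Among cyclins, CDKs, pocket proteins and E2F genes, 6 were higher and 4 lower of 24 in knockout, with a median of 0.08. Ccnd2 and Cdk6, a cyclin and a kinase of the pair that p15 inhibits, fell by 0.66 and 0.62 (limma adjusted p = 5.1e-06 and 2.7e-05). Rbl1, a pocket protein gene, and the cyclin gene Ccnb2 rose by 0.65 and 0.52 (limma adjusted p = 1.4e-04 and 2.2e-04). With GSH against knockout 2 were higher and 8 lower (median -0.16), with Ccna2 at -0.94 and Cdk1 at -0.83, and against wild type 4 were higher and 12 lower (median -0.23). Of 16 proliferation markers, 10 were higher in knockout and the others were not called (median 0.34), with Mki67 at 1.41. With GSH against knockout 11 were lower and the others were not called (median -0.65), and against wild type 4 were higher and 7 lower (median -0.18). Mki67 stayed high with GSH, at 3218 ± 124 beside 3357 ± 326 in knockout and 1267 ± 111 in wild type. It stood 1.35 above wild type (limma adjusted p = 3.9e-08), while Plk1, Aurka and Tpx2 were called lower than in wild type, at -1.10, -0.72 and -0.61.

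**Figure D4:**
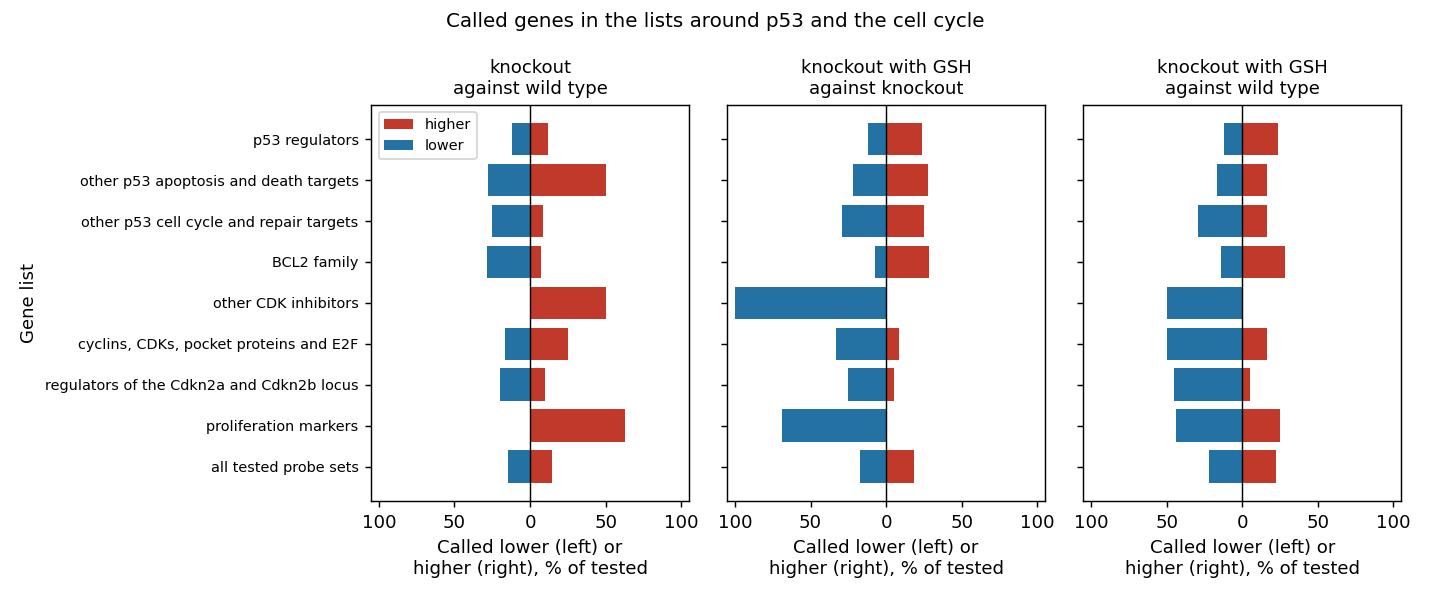
Share of tested genes called lower (left, blue) or higher (right, red) in each list, for the 3 comparisons, with all tested probe sets in the lowest bar. Proliferation markers have 10 of 16 called higher in knockout and 11 of 16 called lower with GSH, and all 4 other CDK inhibitors were lower with GSH against knockout.

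Markers of several cell types moved with the groups, and in these bulk samples fewer cells of a type and less RNA per cell cannot be told apart. Transitional epithelial markers, which mark injured or cultured alveolar epithelium, had 1 higher and 9 lower of 10 in knockout and all 10 higher with GSH against knockout, the direction that Pmaip1 took. Their summed signal was 59349 to 65874 in wild type, 24990 to 32844 in knockout and 82663 to 103235 under GSH. Sfn, named above among the p53 targets, is 1 of these 10 markers. Type I markers and NRF2 targets, given further below, leaned the same way. Macrophage markers had 21 higher and 2 lower of 24 in knockout and 14 higher and 2 lower with GSH against knockout, with sums of 89852 to 91298, 145650 to 167586 and 195004 to 220254 in the 3 groups. Fibroblast and mesenchymal markers had 15 higher and 2 lower of 21 in knockout and 1 higher and 18 lower with GSH against knockout, with sums of 162035 to 175401, 188121 to 247227 and 101269 to 116126. No transitional epithelial, macrophage or fibroblast and mesenchymal marker lay at or below the control level on every array of a group. The part of these cell types in the changes of the members was not tested.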

How the data were processed

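Cells were freed with Dispase (45 min) and cleared of macrophages on IgG plates and of fibroblasts by adherence, per the labels' protocols. The authors deposited 1 intensity per probe set and array on a linear scale, and every array had a 2% trimmed mean of 500. What software summarised the probes is not stated; precision is limited by how few arrays there are.

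From the deposited intensities, 64 control probe sets were left out and 2 values under 0.1 were set to 0.1. Log2 values entered a limma fit (version 3.58.1, R 4.3.3; group and set, intensity trend), after probe sets below the median of mean log2 intensity (a geometric mean of 116) were left out. Named genes were all members, up to 4 called genes a pathway list by smallest p, and the 3 genes most like a member. Markers of epithelial, macrophage, fibroblast, mesothelial, endothelial, lymphocyte and airway cells, NRF2 targets and lists around p53 and the cell cycle are described by counts and medians. The members and lists were chosen with earlier results of these data known. RefSeq (GRCm38.p6) gave the promoters. The alternatives changed the set term, normalisation, filter, offset, arrays, variance trend and call rule. The fit was tested on simulated data.

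The knockout groups have the same replicate numbers; same-numbered arrays deviated together (correlations 0.32, 0.29 and 0.67), so the numbers were taken to pair them; crossed pairs within set 2 gave 0.24 and 0.39. For wild type and knockout the shared numbers gave 0.42 and -0.49, the second between an array of set 2 and an array of set 3. They were not taken as pairs.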

Additional observations from a re-analysis of the deposited data

How the results depend on the processing

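Leaving out each array in turn kept the count of called members within 5 to 6 genes between knockout and wild type, 3 to 4 between the knockout groups and 4 to 5 between knockout with GSH and wild type. Without the set term, 2774, 4574 and 6181 probe sets were called in the 3 comparisons in place of 6560, 7964 and 10074, and 2, 2 and 2 members in place of 5, 4 and 5. With the replicate block in place of the set, the calls against wild type were 3253 and 6586 probe sets with 3 and 3 members, and Pmaip1 was called higher with GSH than in wild type (log2 change 0.47, adjusted p = 0.021). In that block, number 4 joins a wild-type array of set 2 with knockout arrays of set 3, so these values mix group and set. Pmaip1 was 0.48 higher in set 3 than in set 2, and with GSH it differed from wild type by 0.24 within set 2 and 0.05 within set 3. Between the knockout groups the block left 3 members and changed no call of a member other than Cdkn1a. Calling by a mean change of 1.5-fold that at least 6 of 9 array pairs reach, with an unadjusted p under 0.05, gave 2429, 3551 and 4708 probe sets and 2, 1 and 1 members. Asking that all tested probe sets of a gene be called in 1 direction left 3 members between knockout and wild type and 2 between the knockout groups. The cause of these differences was not tested. The calls of Pmaip1 and Cdkn2b between knockout and wild type held under all of these settings. Over the single member probe sets, no called change reversed; 183 of 206, 190 of 206 and 165 of 206 values kept their side of the threshold in the 3 comparisons. Signals near the control level, as for Cdkn2a and the dimmest Mdm2 probe set, limit what can be read from them.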

Other observations

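Known regulators of the Cdkn2a and Cdkn2b locus had 2 higher and 4 lower of 20 in knockout, 1 higher and 5 lower with GSH against knockout and 1 higher and 9 lower with GSH against wild type, with medians of -0.03, -0.09 and -0.22. Ets2, an activator of that locus, rose by 0.82 in knockout, and Smad3, which carries TGF-beta signals, fell by 0.39 (limma adjusted p = 6.8e-05 and 0.0011). Twist1 read 342 ± 32.4, 219 ± 48.6 and 83.9 ± 6.95 in wild type, knockout and knockout with GSH, and the repressor gene Tbx2 read 184 ± 27.0, 307 ± 61.8 and 53.5 ± 14.9.

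NRF2 targets had 1 higher and 10 lower of 11 in knockout, 8 higher and 1 lower with GSH against knockout, and 2 higher and 7 lower with GSH against wild type. Srxn1, which repairs oxidised peroxiredoxins, had a log2 change of -1.97 in knockout and -1.95 with GSH against wild type (limma adjusted p = 2.3e-07 and 8.4e-08). Hmox1, which breaks down heme, rose with GSH from 4064 ± 517 to 7109 ± 347.

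Of the remaining cell type lists, type II markers had 2 higher and 2 lower of 9 in knockout and 6 higher with GSH against knockout, the others not called. Type I markers had 9 lower of 11, then 5 higher and 1 lower. Mesothelial markers had 5 lower of 5, then 1 higher and 4 lower. Endothelial markers had 3 lower of 8, then 2 higher and 2 lower. Airway markers had 1 lower of 2, then 2 higher, and the 2 tested lymphocyte markers, Cd8a and Ms4a1, had limma adjusted p of 0.43 to 0.98 over the 3 comparisons.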
